A study of Mus musculus with 12 samples.

Results

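The 10 immediate early genes Fos, Fosb, Jun, Junb, Egr1, Egr2, Ier2, Atf3, Btg2 and Dusp1 were taken by symbol from a deposited expression table of 23421 mouse genes, and all 10 were found. They were described across the 5 RNA libraries of a study of T (Brachyury), the transcription factor of early mesoderm, in cells sorted for T by flow cytometry.

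Immediate early genes are transcribed within minutes of a stimulus from transcription factors that the cell already holds, so they need no new protein, and most of their RNAs decay quickly. Growth factor receptors, FGF receptors among them, reach them through the RAS, RAF, MEK and ERK kinases, while stress reaches them through JNK, p38 and the integrated stress response. Tissue dissociation and sorting are themselves known to induce these genes, so in a sorted population their RNA reports both signalling in the tissue and handling, and a single measurement cannot tell them apart.

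All libraries came from T-positive cells of a 129S2 and C57Bl6J strain background, sorted straight into RLT lysis buffer and made into libraries with the ScriptSeq v2 low-input kit. From embryos there was 1 library labelled wild type with the stage TS12/TS13 (Theiler stages 12 and 13), 1 T_Y88A library at TS12 and 1 T_Y88A library at TS13. T_Y88A is a mutant allele of T, and the series' design text gives the compared embryos as T_het, which it calls wild type. From culture there were 2 libraries of Day 4 of in vitro differentiation, 1 labelled wt and 1 T_Y88A. In these cultures embryonic stem cells were freed of feeder cells, aggregated in hanging drops, plated on fibronectin with BMP4, and then given WNT3A and FGF8. The ages and number of animals, how T was detected in the sort, and whether any 2 libraries came from separate animals or cultures are not stated in the labels, so p-values measure the spread between these libraries, which may be technical.

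T was present in every library, at 65.9, 69.8 and 26.99 FPKM in the embryo wild type, T_Y88A TS12 and T_Y88A TS13 libraries and at 72.9 and 32.5 FPKM in the Day 4 wt and T_Y88A libraries. FPKM is fragments per kilobase of transcript, scaled to the mapped fragments of the library. A level of T cannot check a label for an altered codon, and the table's heading for the embryo wild type library begins with the same letters as those of the mutant libraries, so every genotype direction below rests on the label alone. The sort label was otherwise carried unequally. Of 8 early mesoderm markers 6 were lower in both Day 4 libraries than in all 3 embryo libraries, as were 34.8% of all genes above the filter. Cdx2, among those 6, stood at 73.8, 101.2 and 72.3 FPKM in the embryo libraries in that order and at 0.0974 and 0.250 FPKM in Day 4. The 1 marker higher in both Day 4 libraries, as were 34.0% of genes, was Fgf8. It stood at 13.1, 9.99 and 3.78 FPKM in the embryo libraries and at 26.5 and 54.3 FPKM in Day 4.

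The FPKM values moved in whole steps, which gave back the fragments behind each member. After correction for relative depth, the 5 values of every one of the 10 genes stood in whole-number ratios, within 0.005 of a fragment plus 5e-06 per fragment. For Jun, Junb and Ier2, genes without introns, the RefSeq lengths of 3187, 1840 and 1522 bases each turned these numbers into the same total, so the values had been scaled to 41621000, 31380000 and 40396000 fragments, rounded, in the embryo wild type, T_Y88A TS12 and T_Y88A TS13 libraries and to 43095000 and 20503000 in the Day 4 wt and T_Y88A libraries. Fragment numbers below are the smallest whole set. For 7 members the gene's own length allows no larger set, whereas those of Fosb, Egr2 and Atf3 may be higher by a whole factor. The intervals of Fosb, Egr2 and Atf3 below rest on the smallest set and would be narrower with a larger one. Intervals from these numbers are exact Poisson intervals at 95% and cover counting error only, because PCR copies of a molecule were not marked.

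The promoters of 5 members are printed because the regulatory elements named in them are the classical entry points of these signals. All 5 genes stood higher in both Day 4 libraries than in the embryo libraries. That was also true of Jun, Fosb, Egr1 and Atf3, whose promoters are not printed, so it does not set the 5 apart. Each run is the 250 bases before a RefSeq start in build GRCm38.p6, written 5′ to 3′ in the direction of transcription. The Fos window is chr12:85473640-85473889 on the plus strand, the Junb window chr8:84978749-84978998 on the minus strand and the Egr2 window chr10:67537619-67537868 on the plus strand. Egr2 has 5 annotated starts, and the window shown, which lies inside the gene's listed span, is the first of them that holds both a CRE core and a CArG box, so it was picked for its elements. The Btg2 window is chr1:134079156-134079405 and the Dusp1 window chr17:26508473-26508722, both on the minus strand. Capitals mark the cAMP response element (CRE) core, TGACG or CGTCA, the full palindrome TGACGTCA that holds both cores, and in Egr2 the CArG box, the binding sequence of serum response factor.
Fos: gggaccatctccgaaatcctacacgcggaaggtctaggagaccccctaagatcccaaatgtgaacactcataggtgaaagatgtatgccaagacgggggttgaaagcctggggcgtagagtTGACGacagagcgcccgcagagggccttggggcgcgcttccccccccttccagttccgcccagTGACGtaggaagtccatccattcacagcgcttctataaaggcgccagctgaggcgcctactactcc
Junb: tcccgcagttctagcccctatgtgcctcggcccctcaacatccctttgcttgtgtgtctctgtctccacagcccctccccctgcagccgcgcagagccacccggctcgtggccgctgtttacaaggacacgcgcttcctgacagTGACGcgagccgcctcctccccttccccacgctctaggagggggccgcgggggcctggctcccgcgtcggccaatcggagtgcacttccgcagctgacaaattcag
Egr2: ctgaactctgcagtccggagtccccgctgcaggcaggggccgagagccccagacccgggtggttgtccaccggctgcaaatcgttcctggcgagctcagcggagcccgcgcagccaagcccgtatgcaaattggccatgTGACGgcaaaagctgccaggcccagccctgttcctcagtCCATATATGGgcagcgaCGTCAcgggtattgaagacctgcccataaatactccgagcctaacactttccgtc
Btg2: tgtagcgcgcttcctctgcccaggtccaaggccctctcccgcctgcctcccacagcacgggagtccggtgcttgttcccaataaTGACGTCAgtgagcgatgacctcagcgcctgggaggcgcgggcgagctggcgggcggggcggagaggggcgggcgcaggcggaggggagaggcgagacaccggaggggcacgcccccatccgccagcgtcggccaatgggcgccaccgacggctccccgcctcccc
Dusp1: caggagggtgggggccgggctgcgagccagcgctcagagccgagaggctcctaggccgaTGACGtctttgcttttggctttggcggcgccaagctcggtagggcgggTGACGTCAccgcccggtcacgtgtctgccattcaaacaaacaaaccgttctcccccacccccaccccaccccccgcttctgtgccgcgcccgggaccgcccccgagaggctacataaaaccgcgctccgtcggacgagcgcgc

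No window was available for Egr1 and Ier2. The CRE core, searched on both strands, was present in at least 1 window of 7 of the 8 other members, all but Jun. That compares with 19.8% of 27025 genes counted in the same way. Counted by window the core was in 9 of the members' 12, against 17.8% of 32851 windows. Egr2 alone gave 5 of those 12 windows and 3 of the 9, and its windows are not separate from each other. In Fos it began at positions -129 and -66 from the annotated start, and in Junb at -106. Egr2 carried cores at -111 and -55 around a CArG box at -72. It was the only 1 of the 8 members with a CArG box in any window, as were 1.62% of genes. Of its 5 overlapping or neighbouring windows 4 held the box. Btg2 carried the full palindrome at -166 and Dusp1 at -143, with a further core at -191 in Dusp1, against 1.77% of genes. TATAAA was found in Fos and in 8.94% of genes, and the AP-1 element, TGACTCA or TGAGTCA, in none of the 8 members and in 5.16% of genes. The full palindrome overlaps the core by construction, and a match of letters is a description only.

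Fos and Fosb encode 2 of the partners of the AP-1 dimer. Fos, on chr12:85473890-85477274, was measured at 0.964, 0.426 and 0.154 FPKM in the embryo wild type, T_Y88A TS12 and T_Y88A TS13 libraries and at 7.71 and 6.64 FPKM in the Day 4 wt and T_Y88A libraries. Those values rest on 84, 28, 13, 696 and 285 fragments in the same order. The Day 4 libraries were both higher, with no overlap, and the counting intervals of the 3 embryo libraries did not overlap either. The Day 4 mean of 7.18 ± 0.760 FPKM (SD, n = 2) was 13.9 times the embryo mean of 0.515 ± 0.412 (SD, n = 3).

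Fosb, on chr7:19302696-19310118, was scarce everywhere, at 0.165, 0.101 and 0.0131 FPKM in the embryo libraries and 0.492 and 0.387 in Day 4, from 13, 6, 1, 40 and 15 fragments. The order was that of Fos. The TS13 value, 1 fragment in the smallest whole set, has an interval from 0.000332 to 0.0731 FPKM on that number. Summed over the Fos family, FPKM were 2.12, 1.16 and 0.716 in the embryo libraries and 12.1 and 10.1 in Day 4. Fos gave 45.4%, 36.7% and 21.5% of that sum in the embryo libraries and 63.9% and 65.9% in Day 4, so the make-up of the family differed along with its level.

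Jun and Junb encode the other side of AP-1, Jun being the target of JNK and Junb often the weaker activator of the pair. Jun, on chr4:95049036-95052222, was measured at 5.53, 3.48 and 5.77 FPKM in the embryo wild type, TS12 and TS13 libraries and 20.6 and 16.6 in Day 4 wt and T_Y88A, from 733, 348, 743, 2833 and 1087 fragments. Day 4 was higher without overlap, and within the embryo it was the TS12 mutant that stood apart, not genotype as a whole. Junb, on chr8:84976909-84978748, was measured at 3.33, 0.901 and 1.28 FPKM in the embryo libraries and 9.80 and 14.4 in Day 4, from 255, 52, 95, 777 and 545 fragments. Here both embryo mutants lay below the wild type library, and in Day 4 the mutant lay above it. The Day 4 to embryo ratio of the means was 3.78 for Jun and 6.60 for Junb.

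Egr1 and Egr2 are zinc finger factors, Egr1 a standard readout of ERK activity. Egr1, on chr18:34861207-34864956, was measured at 1.08, 0.239 and 0.266 FPKM in the embryo wild type, TS12 and TS13 libraries and 3.92 and 5.38 in Day 4 wt and T_Y88A, from 138, 23, 33, 519 and 339 fragments. Its pattern was that of Junb, with the embryo mutants low together and the Day 4 mutant above its control. Egr2, on chr10:67534469-67542188, was measured at 0.122, 0.0537 and 0.117 FPKM in the embryo and 0.587 and 0.691 in Day 4, from 15, 5, 14, 75 and 42 fragments, so Day 4 was again higher without overlap and the embryo libraries could not be ordered at this depth. The Day 4 to embryo ratios were 8.81 for Egr1 and 6.56 for Egr2.

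Atf3, a stress-induced repressor of the ATF family and a target of the integrated stress response, lies on chr1:191170296-191183333. It was measured at 2.70, 0.822 and 2.46 FPKM in the embryo wild type, TS12 and TS13 libraries and 7.68 and 7.18 in Day 4, from 222, 51, 196, 654 and 291 fragments. Day 4 was higher without overlap, by 3.73 times between means, and the low embryo library was TS12.

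Btg2 and Dusp1 act against the signal that induces them, Btg2 as an antiproliferative factor that recruits the CCR4-NOT deadenylase and Dusp1 as a phosphatase of JNK, p38 and ERK. Btg2, on chr1:134074865-134079155, had the highest mean of the 10 over the 5 libraries, with 11.6, 3.49 and 6.91 FPKM in the embryo wild type, TS12 and TS13 libraries and 38.9 and 32.8 in Day 4 wt and T_Y88A. Its fragments numbered 1491, 338, 860, 5166 and 2074, and its 5 values were separated from each other by more than counting error. Dusp1, on chr17:26505591-26508472, was measured at 2.49, 1.23 and 2.231 FPKM in the embryo and 11.8 and 11.4 in Day 4, from 201, 75, 175, 991 and 453 fragments. For both genes Day 4 was higher without overlap, by 4.88 times for Btg2 and 5.86 times for Dusp1, and TS12 was the lowest library.

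Ier2, a small nuclear protein of the immediate early class, ran the other way. Ier2, on chr8:84661331-84662852, was measured at 6.46, 7.87 and 9.24 FPKM in the embryo wild type, TS12 and TS13 libraries and 6.17 and 4.84 in Day 4 wt and T_Y88A, from 409, 376, 568, 405 and 151 fragments. The groups did not overlap, but the gap between the lowest embryo library and the higher Day 4 library was within counting error, their intervals being 5.85 to 7.11 and 5.59 to 6.81 FPKM. The 10 genes summed to 34.4, 18.6 and 28.4 FPKM in the embryo libraries and to 107.7 and 100.4 FPKM in Day 4. Ier2 gave 18.7%, 42.3% and 32.5% of that sum in the embryo libraries and 5.73% and 4.82% in Day 4, so it was the leading gene of the set in both embryo mutants and a minor one in culture.

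**Figure D1:**
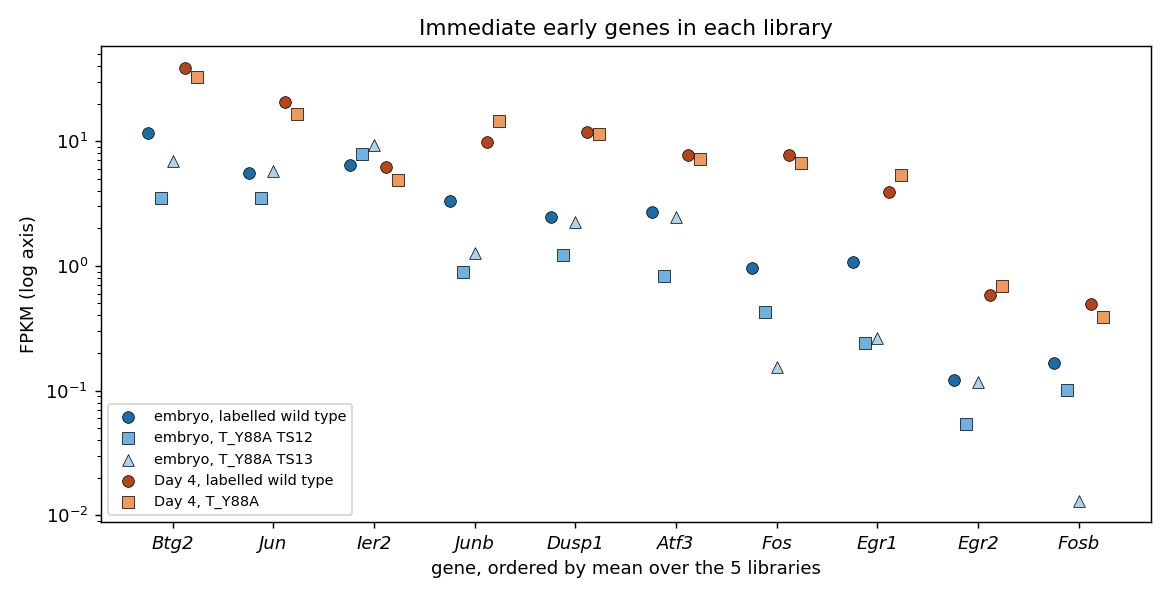
FPKM of each of the 10 genes (log axis) in the 3 embryo libraries (blue) and the 2 Day 4 libraries (orange), 1 point per library and no error bars, genes ordered by their mean over the 5 libraries. Both orange points lie above all blue points for 9 genes and below them for Ier2.

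The first comparison the design allows is between cells from the embryo and from Day 4 culture. Of the 8 members that passed the filter of a mean of at least 1 FPKM, Fos, Jun, Junb, Egr1, Atf3, Btg2 and Dusp1 were higher in Day 4 and Ier2 did not pass the test (limma on log2(FPKM + 1) with genotype as covariate, Benjamini-Hochberg adjusted p under 0.05 over 11607 genes). The 2 systems differed in much of the transcriptome, since 51.9% of genes were called in either direction and 25.9% higher in Day 4, and both Day 4 libraries lay above all 3 embryo libraries for 34.0% of genes. The count of 7 of 8 members has to be read against those shares, and Fos and Egr1 passed the filter only through their Day 4 values. The members' median difference was 1.97 on the log2 scale against -0.01 over all genes, and 3.95% of all genes had a difference at least that high.

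On this log2(FPKM + 1) scale, which understates the change of low genes, the largest difference was that of Fos, 2.39 ± 0.22 (SE; adjusted p = 0.000102). Junb followed at 2.22 ± 0.33 (adjusted p = 0.000977), Btg2 at 2.14 ± 0.28 (adjusted p = 0.000504) and Dusp1 at 2.07 ± 0.22 (adjusted p = 0.00021). Those 4 genes, an AP-1 partner pair and a pair of feedback genes, differed among themselves by no more than the sum of their SEs and cannot be ranked. Egr1 differed by 1.88 ± 0.28 (adjusted p = 0.00092), Jun by 1.70 ± 0.21 (adjusted p = 0.000388) and Atf3 by 1.502 ± 0.29 (adjusted p = 0.00339). Ier2 differed by -0.43 ± 0.21 (adjusted p = 0.117), being lower in both Day 4 libraries.

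Without the Day 4 T_Y88A library Atf3 no longer passed (1.23, adjusted p = 0.0675). Ier2 passed as lower in Day 4 without the embryo wild type library (-0.71, adjusted p = 0.0374) and without the Day 4 wt library (-0.71, adjusted p = 0.0319). With no filter Fosb (0.38, adjusted p = 0.0186) and Egr2 (0.58, adjusted p = 0.00903) were called too.

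**Figure D2:**
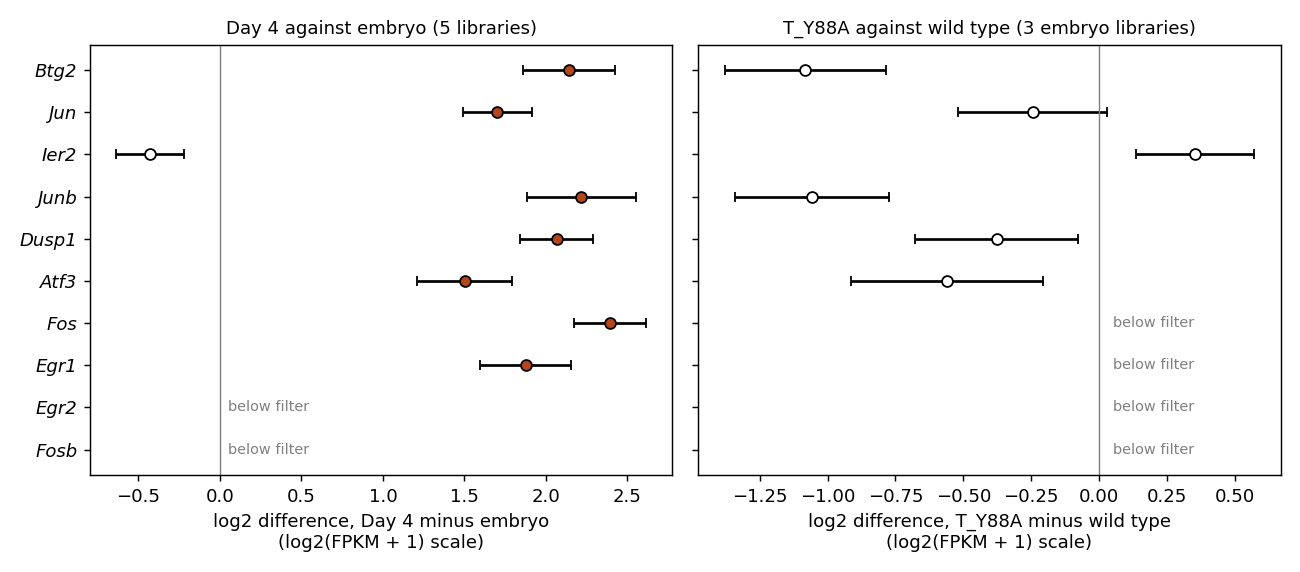
Log2 differences (horizontal axis, log2(FPKM + 1) scale) with their SE from limma, Day 4 minus embryo over 5 libraries on the left and T_Y88A minus wild type over 3 embryo libraries on the right, filled points having an adjusted p under 0.05. On the left 7 of 8 tested genes are filled, between 1.502 and 2.39, and on the right none of 6 is.

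Other genes of the rapid response were also more often higher than lower in Day 4. Of 36 further immediate early and rapid response genes 28 were tested, 19 were higher, 1 was lower and 8 were not called, where 25.9% of all genes were higher and 26.0% lower. The median was 1.25, but 5 of the 19 (Arc, Csrnp1, Fosl2, Nr4a1 and Zfp36) had an embryo mean under 1 FPKM and passed the filter only through Day 4. The leading genes were Gadd45b, a stress sensor of the GADD45 family, and Cyr61 and Ctgf, secreted matrix proteins induced through serum response factor and YAP. Gadd45b was measured at 1.58, 0.378 and 1.25 FPKM in the embryo and 66.8 and 66.7 in Day 4 (5.03 ± 0.25, adjusted p = 7.21e-06). Cyr61 was measured at 8.15, 4.13 and 6.68 FPKM in the embryo and 240.5 and 225.8 in Day 4 (4.98 ± 0.21, adjusted p = 3.82e-06). Their differences, and those of Ctgf (3.86), Arc (3.35), Klf10 (3.32) and Zfp36 (2.91), were larger than that of every member on the log2(FPKM + 1) scale. With a pseudocount of 0.1 the difference of Fos was 3.64, and the order of these genes was not compared at that setting. Zfp36 encodes tristetraprolin, which destabilises AU-rich RNAs such as that of Fos. The gene that was lower was Myc, at 8.12, 4.81 and 4.68 FPKM in the embryo and 1.80 and 2.36 in Day 4 (-1.17 ± 0.24, adjusted p = 0.00448).

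**Figure D3:**
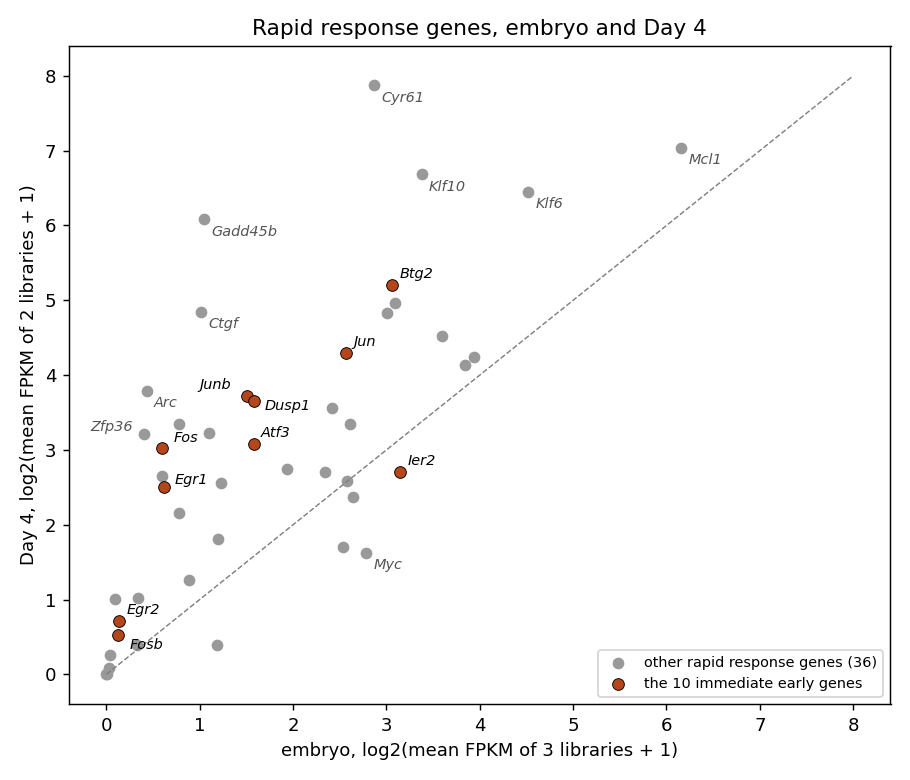
Mean level in the 2 Day 4 libraries against the mean in the 3 embryo libraries, both as log2(FPKM + 1), for the 10 immediate early genes (orange) and 36 other rapid response genes (grey), the dashed line marking equal levels. Ier2 alone of the orange points lies under the line, with Myc among the labelled grey points.

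Genes above and around the members were called in both directions, in shares to be read against the 25.9% higher and 26.0% lower among all genes. Among serum response factor, its ternary complex partners and the CREB group, 3 of 10 were higher in Day 4 (Srf 1.14, Creb3 1.17, Elk1 0.91). In that list 4 were lower, with Elk3 (-1.53), Atf1 (-1.37) and Creb1 (-0.76) among them, and 3 were not called. Of 17 MAP kinase pathway genes 5 were higher and 5 lower, and of 11 ERK feedback genes 4 were higher and 4 lower. Within the feedback genes Dusp6, the ERK phosphatase, was higher (0.97) and Spry4, a Sprouty inhibitor induced by FGF, was lower (-1.58). Of 9 AP-1 and EGR partners tested 4 were higher and 1 lower. Jund (1.91) and Fosl2 (1.33) were among the higher ones, and Maf (-1.15) was the lower one. Of 12 AU-rich RNA decay factors 2 were higher, Btg3 (4.30) and Zfp36 (2.91). In that list 4 were lower, Cnot7 (-1.25), Elavl1 (-1.05), Zfp36l1 (-0.69) and Btg1 (-0.65). Fosl2, Btg3 and Zfp36 passed the filter only through Day 4, and Elk3 and Maf only through the embryo. Jund, Fosl2 and Zfp36 were already counted among the rapid response genes above, so these lists are not separate.

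Lists of other stress programmes are read against the same shares. Of 15 heat shock genes tested 2 were higher, the small heat shock proteins Hspb1 (3.77) and Cryab (1.62), and 5 were lower. Both of the higher genes passed the filter only through Day 4. Hsph1 (-2.39), Hspe1 (-1.32), Dnaja1 (-1.18) and Hspd1 (-1.06) were among the lower genes. Of 11 integrated stress response genes 3 were higher, with Cebpb (2.88) and Asns (1.39) among them. In that list 4 were lower, with Hspa5 (-1.31) and Psat1 (-1.18) among them. Of 9 oxidative stress genes 5 were higher and none lower. Cebpb and 2 of the 5 oxidative stress genes likewise passed only through Day 4.

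Markers of other cell types differed too, to be read beside the 34.0% of genes that were higher and the 34.8% that were lower in both Day 4 libraries than in all embryo libraries. Summed blood markers stood at 6277, 1111 and 2196 FPKM in the embryo wild type, TS12 and TS13 libraries and at 0.658 and 2.28 in Day 4, where the globins Hba-x, Hbb-bh1 and Hbb-y were listed at 0. Endothelium markers summed to 74.1, 27.4 and 37.3 FPKM against 2.56 and 1.85, all 6 being lower in Day 4. Endoderm and epithelial markers summed to 28.3, 22.3 and 12.2 FPKM against 391 and 363 in Day 4, with 3 of 6 higher in both Day 4 libraries than in all embryo libraries. Those 3 were Epcam (289.8 and 268.5 FPKM in Day 4), Cdh1 (70.7 and 72.3) and Foxa2 (28.7 and 19.6), and Sox17, Ttr and Afp were not among them. Macrophage markers summed to between 1.44 and 2.998 FPKM in the embryo and to 6.45 and 11.1 in Day 4, 3 of 5 being higher, of which Cd68 alone gave 5.99 and 10.7 FPKM in Day 4, with Tyrobp listed at 0 in the embryo and Lyz2 at 0 in Day 4. Fibroblast or feeder markers summed to 13.1, 14.6 and 15.0 FPKM against 1.03 and 0.835. Neural markers summed to between 21.9 and 58.2 against 46.2 and 36.01, of which Sox2 alone gave 43.8 and 34.1 in Day 4. The part of these cell types, of the culture medium and of handling in the members' difference was not tested, and in bulk RNA a difference in the share of cells and one in RNA per cell cannot be told apart.

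The second comparison set the 2 T_Y88A embryo libraries against the embryo library labelled wild type. Of the 6 members that passed the filter 2 had an unadjusted limma p under 0.05, as did 1829 of 11150 genes. None of the 6 was called at an adjusted p under 0.05, where 2.48% of those genes were called (90 higher and 187 lower). That split was 3 higher and 17 lower with quantile normalization and 12 higher and 55 lower with upper-quartile scaling, and with no filter no gene at all was called. Fos, Fosb, Egr1 and Egr2 were below the filter. Of the 6, Junb, Atf3, Btg2 and Dusp1 were lower in both mutant libraries, as were 38.0% of all genes, and Ier2 was higher in both, as were 37.0%. The members' median was -0.47 against -0.01 over all genes.

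The nearest to the threshold were Btg2 at -1.08 ± 0.30 (SE; limma, adjusted p = 0.0831) and Junb at -1.06 ± 0.28 (adjusted p = 0.0752). Junb passed when a pseudocount of 5 was used (-0.45, adjusted p = 0.0492). Atf3 (-0.56 ± 0.35), Dusp1 (-0.38 ± 0.30), Jun (-0.24 ± 0.27) and Ier2 (0.35 ± 0.22) were farther off, with adjusted p from 0.464 to 0.727. With a single wild type library the fit has 1 residual degree of freedom, which is the gap between the TS12 and TS13 mutant libraries. Stage and replicate spread cannot be told apart in it, and the wild type library was assumed to vary like the mutant ones. The variance used by limma also drew on all genes (prior degrees of freedom 11.1).

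The fragment numbers show which of these gaps exceed counting error between single libraries, which is a comparison of libraries and not of genotypes. At TS12 the ratio to the wild type library lay below 1 with its whole interval for 7 of 10 members, above 1 for Ier2, and could not be told from 1 for Fosb and Egr2. At TS13 it lay below 1 for 5 members, above 1 for Ier2, and held 1 for Jun, Egr2, Atf3 and Dusp1. Both ratios share the single wild type library, so their agreement is not independent, and the share of all genes with such intervals was not computed. Egr1 stood at 0.221 (95% interval 0.136 to 0.345) at TS12 and 0.246 (0.163 to 0.362) at TS13, and Junb at 0.270 (0.197 to 0.366) and 0.384 (0.300 to 0.488). Fos stood at 0.442 (0.277 to 0.685) at TS12 and 0.159 (0.0815 to 0.288) at TS13. Atf3, at 0.305 (0.220 to 0.415) and 0.910 (0.747 to 1.11), was low at TS12 only by these intervals, while Fos, Junb, Egr1 and Btg2 were low in both.

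Blood markers fell in the mutant embryo libraries (6 of 6 tested lower) as did endothelium markers (5 of 6). Their sums, given above, were highest in the wild type library and lowest at TS12. The values of Junb, Atf3, Btg2 and Dusp1 stood in the same order, as did those of Egr1 and Egr2 below the filter. By the smallest fragment numbers only Btg2 and, narrowly, Junb (TS13 to TS12 ratio 1.002 to 2.03) kept that order beyond counting error. At TS13 Atf3 and Dusp1 could not be told from the wild type library, Egr1 not from TS12, and Egr2 from neither. By contrast the values of Fos and Fosb were lowest at TS13, that of Jun highest at TS13 and that of Ier2 lowest in the wild type library. The gap of Fosb between TS13 and TS12 and that of Jun between TS13 and wild type were within counting error. The share of all genes in the order of the sums was not computed. Of the early mesoderm markers Msgn1 (-3.37), Dll1 (-2.15) and Tbx6 (-1.81) were lower and Nkx1-2 (1.12) was higher, as was the neural marker Sox2 (0.95). The part of these cell types in the members' values was not tested. The list counts here stand against 2.48% of genes called and 1.68% called lower, and with no filter on low values none of these calls held. Among the 23 other rapid response genes tested in the embryo 1 was called, Plk2, a Polo-like kinase of the immediate early class, at -0.96 ± 0.20 (adjusted p = 0.0232). Of 10 integrated stress response genes 3 were called, all lower in the mutants. These were Ppp1r15a, the phosphatase subunit that reverses the response, at -0.93, the amino acid enzyme Asns at -0.78 and the factor Atf4 at -0.70, with adjusted p of 0.0307, 0.0347 and 0.0378. No gene of the serum response, MAP kinase, ERK feedback, AP-1 partner, RNA decay, heat shock or oxidative stress lists was called.

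TS13 was set against TS12 within the mutant, 1 library each, with no test and a rule of 2-fold on log2(FPKM + 1). The 6 members above the filter were all higher at TS13, as were 48.2% of 11062 genes. None of the 6 was past 2-fold, where 0.443% of those genes were past it in that direction and 1.03% in either. Atf3 differed by 0.92, Btg2 by 0.81, Jun by 0.60, Dusp1 by 0.53, Junb by 0.26 and Ier2 by 0.21. Fos and Fosb differed the other way, by -0.31 and -0.12. In fragments the TS13 to TS12 ratio of Atf3 was 2.99 (95% counting interval 2.18 to 4.15) and that of Fos was 0.361 (0.172 to 0.720), so Fos and Atf3 were ordered oppositely between these 2 libraries by more than counting error. The TS12 library is also the one with the lowest blood marker sum and the smallest depth among the embryo libraries, and the part of either was not tested.

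In Day 4 the T_Y88A library was set against the wt library, again 1 each. None of the 8 members above the filter was past 2-fold, where 1.94% of 11555 genes were. Junb was 0.52 and Egr1 0.38 higher in the mutant, and their counting intervals, 1.32 to 1.65 and 1.19 to 1.58 as ratios, lay above 1. Jun (-0.29), Ier2 (-0.30), Btg2 (-0.24) and Fos (-0.19) were lower, with ratios whose intervals lay below 1, between 0.784 and 0.861 as point values. Atf3 (-0.09), Dusp1 (-0.05), Fosb and Egr2 could not be told from equal by counting. The share of all genes with intervals off 1 was not computed for this pair either, and the intervals compare libraries, not genotypes. Over all 5 libraries, with system as covariate, 0 of 8 members were called for genotype by limma, where 0.0689% of genes were called. In this fit 1 member had an unadjusted p under 0.05 (Btg2, -0.72 ± 0.28, adjusted p = 0.472), as did 1119 of 11607 genes. This fit shares its embryo and Day 4 libraries with the comparisons above. For Junb, Egr1 and Ier2, 3 of 8 members, both embryo mutants lay on one side of the wild type library and the Day 4 mutant on the other side of its own, as for 35.5% of all genes.

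**Figure D4:**
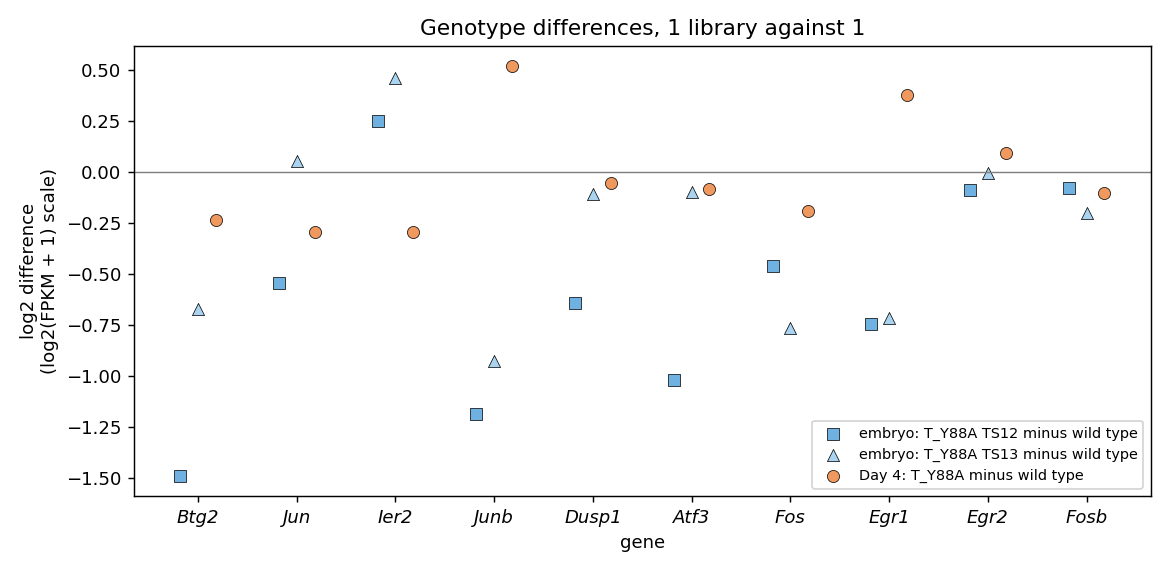
Log2 difference (vertical axis, log2(FPKM + 1) scale) of each T_Y88A library from the library labelled wild type of the same system, for the embryo at TS12 and TS13 and for Day 4, 1 library against 1 and no error bars. For Junb and Egr1 both embryo points are below 0 and the Day 4 point is above it, and Ier2 has the opposite arrangement.

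Among 8078 genes averaging 5 FPKM or more, the profile over the 5 libraries nearest to the mean profile of the 10 was that of Slit3, a secreted guidance ligand, at a distance of 0.183 log2 units (Euclidean, each gene centred on its mean log2(FPKM + 1)). Hagh, Sil1, Agtrap, Sidt2, Larp1b, Itm2b, Skil, Grn and Vcl followed, up to 0.293. All 10 of these were higher in Day 4, by 1.34 to 1.59. Their selection fixed that direction, because the members' mean profile was itself high in Day 4. Of the members themselves, whose own values make up the mean profile, Jun (0.431) and Atf3 (0.457) lay nearest to it and Ier2 (2.22) farthest.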

How the data were processed

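Total RNA of T-positive sorted cells was sequenced in 5 libraries, and 7 chromatin samples were not analysed here. The FPKM values were used as deposited by the authors. Per the submitters' processing notes the series used TopHat2 2.0.8, Cufflinks 2.1.1, bedtools 2.23.0 and build mm10, with no roles given, and do not say whether counting used strand. Of 23421 genes, 783 small RNA genes were left out, and 14 symbols had become dates. Coordinates and promoters are RefSeq (GRCm38.p6).

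Values were tested as log2(FPKM + 1) for genes averaging 1 FPKM or more in the compared libraries, by limma 3.58.1 in R 4.3.3 with a variance trend and Benjamini-Hochberg adjustment over all genes tested, threshold 0.05. The fit was tested on simulated data. Embryo genotype used 3 libraries (1 residual degree of freedom), the other fits 5 (2 residual degrees of freedom, or 1 with an interaction term). Comparisons of 1 library with 1 had a 2-fold rule and no test. Whole fragments were recovered by trying multiples up to 400 of the lowest value. Ratios of fragments have exact conditional intervals. For FPKM fold changes no count model was used.

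The named genes were the 10 members, up to 6 called genes per companion list with the largest differences, and the 10 nearest profiles. T, the sorted gene, and Myc, the single gene of its list that was lower, were named after their values were seen. The 10 members and all lists were chosen with earlier results of these data known. Alternatives tried were pseudocounts of 0.1 and 5, no filter and a mean of at least 5 FPKM, quantile and upper-quartile scaling, no variance trend, robust variance, small RNA genes kept, no genotype covariate, and each library left out.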

Additional observations from a re-analysis of the deposited data

Results flagged for a closer look

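The T_Y88A difference ran in opposite directions in the embryo and in Day 4 for 3 of the 8 genes above the filter, as it did for 35.5% of all genes, and for Egr2 below it. For Junb the log2 difference from the library labelled wild type was -1.19 at TS12, -0.93 at TS13 and 0.52 in Day 4, and the difference between the Day 4 and embryo effects was 1.57 (SE 0.35; limma interaction term, adjusted p = 0.246). For Egr1 it was -0.75, -0.72 and 0.38, a difference of 1.11 (SE 0.33, adjusted p = 0.310). For Ier2 it was 0.25, 0.46 and -0.30, a difference of -0.65 (SE 0.33, adjusted p = 0.464). The interaction term was added after the values were seen and has 1 residual degree of freedom. It called 17 of 11607 genes, none of them among the 8 members tested. Its unadjusted p was under 0.05 for 2 of those 8 members and for 1478 of all genes tested. Egr2, below the filter, was -0.09 and -0.01 in the embryo and 0.0915 in Day 4, which was not tested, and its embryo values rest on 15 fragments or fewer.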

How the results depend on the processing

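The Day 4 calls of Fos, Jun, Junb, Egr1, Btg2 and Dusp1 held under every alternative in which the gene passed the filter, and that of Atf3 under all of these but 1. The members called in Day 4 numbered 4 of 5 tested with a mean of at least 5 FPKM, and between 6 and 8 with a library left out. In the embryo 1 member was called with a pseudocount of 5. Over all genes the embryo fit called 0 with no filter (2252 at an unadjusted p under 0.05), 20 with quantile normalization and 67 with upper-quartile scaling, against 277. Genotype over 5 libraries called 2 genes with a pseudocount of 0.1, 4 with 5, 1 with no filter and 1 with a mean of at least 5 FPKM, against 8, and 3 to 54 with a library left out. In that fit, with a library left out, Junb ranged from -1.06 to 0.52, Egr1 from -0.73 to 0.38 and Ier2 from -0.30 to 0.35, turning sign without the embryo wild type library, and Ier2 was -0.02 without T_Y88A TS13, none being called. TS13 against TS12 gave 264 genes past 2-fold with a pseudocount of 0.1, with 1 member among them, and 27 with 5, against 114. Day 4 genotype gave 438 and 78, against 224. The cause of these shifts was not tested. No paired analysis was possible because the labels give no replicate numbers. Leaving out a mutant embryo library left 1 against 1 and no test. Values under 30 fragments, those of Fosb and of Egr2 in the embryo among them, are limited by depth.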
